A study of Homo sapiens with 74 samples.

Results

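Neurofilaments and synaptic proteins are textbook products of neurons, yet transcripts of several of their genes were present in HEK293T, a human cell line derived from embryonic kidney. The 10 genes described here were listed by symbol, with earlier results of these data known: NEFL, NEFM, NEFH and INA encode neuronal intermediate filaments, SYP, SNAP25 and SYT1 proteins of synaptic vesicle release, and STMN2, TUBB3 and GAP43 proteins of the neuronal cytoskeleton and growth cone. All 10 of the 10 symbols were found among the 39037 genes of the RNA table, 1 identifier each. Their spans covered 18 bins of 100 kb in the DamID data, 16 of them on chromosomes 1 to 22.

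The RNA groups had 2 libraries each. They were cells transfected with DamV133A-LMNB1, cells with DamV133A alone, cells with m6A-Tracer, and untreated cells, for which the labels give no transfection. Dam is a bacterial methylase that marks the adenine of GATC, V133A is a variant of it, and LMNB1 is lamin B1, a filament protein of the nuclear lamina. The m6A-Tracer binds methylated GATC. In bulk DamID, DNA near the lamina was mapped with 2 libraries of DamV133A-LMNB1 against 2 of DamV133A, and a set of Dam variants added 2 libraries each of the V133A fusion, V133A, the wild-type fusion and wild-type Dam. Single cells were 15 with DamV133A-LMNB1 and m6A-Tracer in batch 1, 36 with DamV133A-tdTomato-LMNB1 and m6A-Tracer-NES in batch 2, and 3 with DamV133A and no lamin B1 in batch 1. The plasmids entered by transient transfection, and the share of cells that took them up was not given. The recorded protocol, with 1 mM Shield-1 for 20 hours, is the same text for every sample, so it does not say whether the untreated cells received Shield-1. Nothing in the labels says that replicates were separate cultures, so p-values measure only the spread between these libraries, which may be technical.

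RNA libraries held 39690886 to 51455298 estimated counts. Levels below are in CPM, which sets the libraries to a common size, here with TMM scaling. The deposited counts carry no transcript lengths, so no difference in level between genes is given as a result. LMNB1, the gene that the fusion carries, had 2548 and 2056 CPM in DamV133A-LMNB1 cells, 249.6 and 253 CPM in DamV133A cells, 251 and 257 CPM in m6A-Tracer cells, and 767 and 768 CPM in untreated cells. The label of the fusion cells was thus matched by their LMNB1 level, while DamV133A and m6A-Tracer cells lay below untreated cells (log2 fold changes -1.61, SE 0.09, and -1.59, SE 0.09; adjusted p = 6.92e-05 and 0.000191, edgeR).

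As background, neurofilaments are built from light, medium and heavy chains together with alpha-internexin, and they fill and widen axons. Vesicle release is driven by SNARE proteins, with synaptotagmin as the calcium sensor. Stathmins and tubulins set the stability and make-up of microtubules. In cells outside the nervous system many such genes are held down by the repressor REST. Genes that lie in lamina-associated domains (LADs), the stretches of chromatin at the nuclear rim, are as a rule weakly transcribed.

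The promoters of SYT1 and TUBB3 are shown because these genes lay on opposite sides of the lamina map below, and because Dam and DpnI can act only at GATC. The windows run from 250 bases before to 50 after a start site in RefSeq (GRCh38.p14), with GATC in capitals.
SYT1 promoter, chr12:78864524-78864823, plus strand: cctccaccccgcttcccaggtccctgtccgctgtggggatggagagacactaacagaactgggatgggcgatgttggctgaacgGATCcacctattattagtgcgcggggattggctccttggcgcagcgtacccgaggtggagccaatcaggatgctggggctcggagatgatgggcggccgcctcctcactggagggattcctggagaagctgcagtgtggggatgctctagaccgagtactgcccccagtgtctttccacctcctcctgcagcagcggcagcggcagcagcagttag
TUBB3 promoter, chr16:89923092-89923391, plus strand: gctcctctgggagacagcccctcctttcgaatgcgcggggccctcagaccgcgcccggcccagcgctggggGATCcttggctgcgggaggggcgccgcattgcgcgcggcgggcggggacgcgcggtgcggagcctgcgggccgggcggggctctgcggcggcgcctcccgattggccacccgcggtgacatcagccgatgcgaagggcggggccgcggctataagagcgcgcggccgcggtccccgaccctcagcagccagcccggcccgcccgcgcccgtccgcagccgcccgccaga
Each window held 1 GATC, which began 166 bases before the start in SYT1 and 179 bases before it in TUBB3. The windows of INA, SYP and GAP43 held none, nor did that of another TUBB3 start at position 89921925 of chromosome 16. GATC reads the same on both strands, and 41.8% of 34789 RefSeq windows of this length on chromosomes 1 to 22 and X held it. All 19363 of these sites lay exactly between 2 neighbouring DpnI fragments of the deposited variant table, so that table and the windows share their coordinates.

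In untreated cells, 7 of the 10 genes reached 1 CPM in both libraries, against 36.0% of all 39037 genes; the set was named as genes expressed in these cells, so nothing is read from that share. NEFH, SNAP25 and STMN2 stayed under 1 CPM there, and NEFH and STMN2 stayed under it in all 8 libraries. All 10 passed the filter on low counts that left 17740 genes in the test. SNAP25 had 5 and 8 counts in the untreated libraries and had to be higher elsewhere to pass.

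Transfection of any of the 3 constructs went with lower NEFL and NEFM and higher SNAP25. TUBB3 passed upward over untreated cells only with the fusion, but the fusion cells did not differ past the threshold from DamV133A or m6A-Tracer cells. Of the 10 genes, 2 were higher and 2 lower in DamV133A-LMNB1 over untreated cells, against 11.4% and 7.56% of all genes tested. In DamV133A over untreated cells 1 was higher and 2 were lower, against 13.6% and 13.1% of all genes. In m6A-Tracer over untreated cells 1 was higher and 2 were lower, against 7.62% and 4.67%. The median log2 fold change of the 10 genes was 0.05, 0.03 and 0.08 in these 3 comparisons, beside -0.00, 0.01 and 0.01 over all genes. The 3 comparisons share the untreated libraries and are not independent. In bulk RNA, fewer expressing cells and less RNA per cell cannot be told apart. Calls were made at an adjusted p under 0.05 with the quasi-likelihood F test of edgeR, adjusted over all genes by Benjamini and Hochberg's method.

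**Figure D1:**
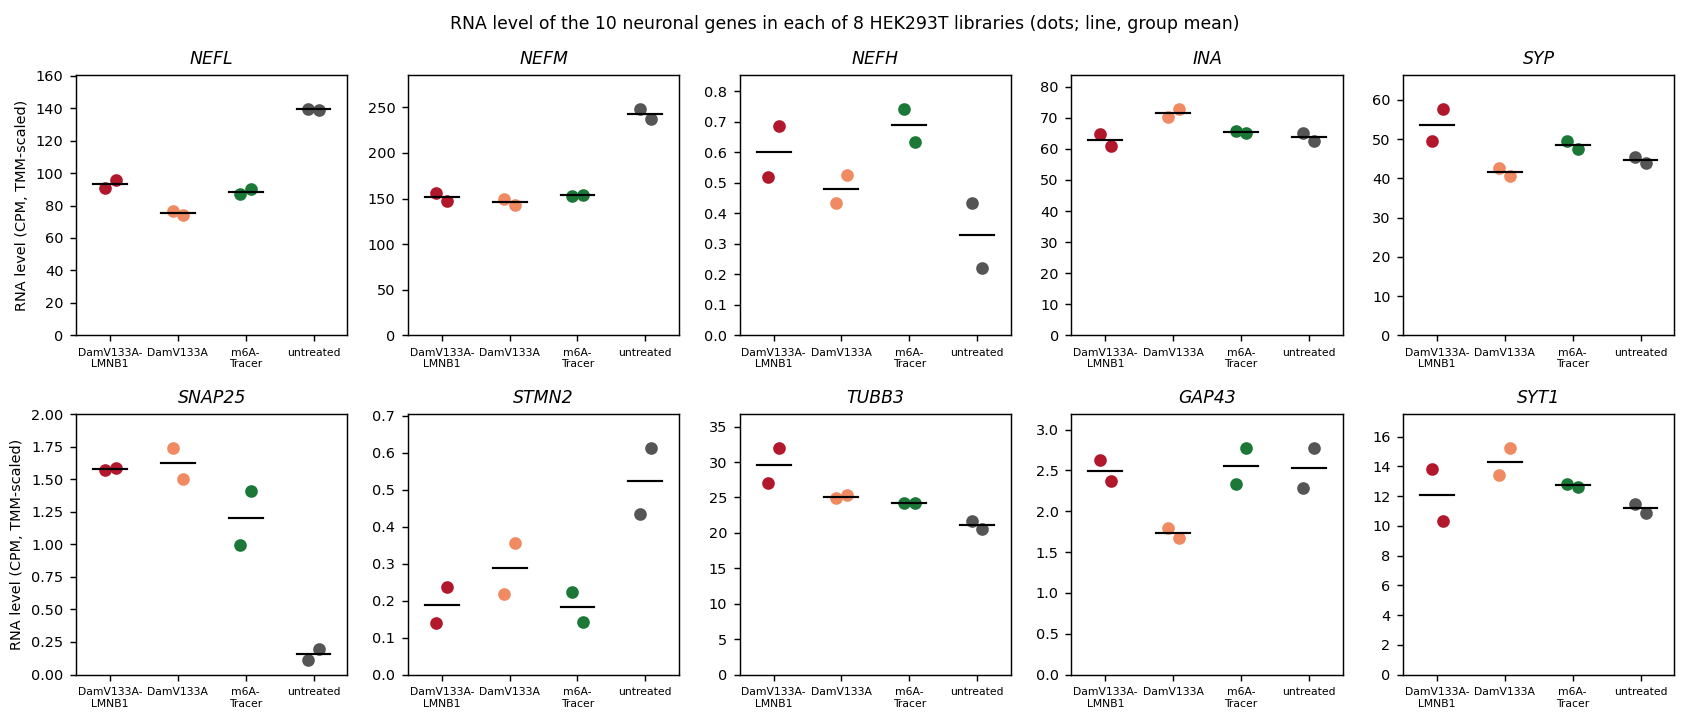
RNA level in CPM (vertical axes, each starting at 0) of the 10 genes in 8 libraries, with dots for libraries and a line for each group's mean. NEFL and NEFM were lower and SNAP25 higher in all 6 transfected libraries than in both untreated libraries.

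NEFL, the light chain that neurofilaments cannot be built without, had 91.0 and 96.0 CPM in DamV133A-LMNB1 cells, 76.4 and 74.3 CPM in DamV133A cells, 87.2 and 90.0 CPM in m6A-Tracer cells, and 139.8 and 139 CPM in untreated cells. No transfected group overlapped the untreated group. It fell by 0.58 on the log2 scale (SE 0.05, adjusted p = 0.000825, edgeR) in DamV133A-LMNB1 over untreated cells. It fell by 0.89 (SE 0.05, adjusted p = 9.60e-05, edgeR) in DamV133A cells and by 0.65 (SE 0.05, adjusted p = 0.000606, edgeR) in m6A-Tracer cells.

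NEFM, the medium chain, had 156 and 147 CPM in DamV133A-LMNB1 cells, 149 and 142 CPM in DamV133A cells, 153 and 154 CPM in m6A-Tracer cells, and 249 and 237 CPM in untreated cells. The DamV133A-LMNB1 libraries overlapped those of both other transfected groups, and all 3 groups lay below untreated cells. The log2 fold changes over untreated cells were -0.68 (SE 0.05, adjusted p = 0.000483), -0.73 (SE 0.06, adjusted p = 0.000183) and -0.66 (SE 0.06, adjusted p = 0.000655) in DamV133A-LMNB1, DamV133A and m6A-Tracer cells by edgeR. NEFL and NEFM lie 31.9 kb apart on chromosome 8, and their log2 levels over the 8 libraries had a Pearson r of 0.95, a description in which the step to untreated cells carries much of the spread.

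INA, alpha-internexin, had 64.7 and 60.9 CPM in DamV133A-LMNB1 cells, 70.2 and 73.0 CPM in DamV133A cells, 65.7 and 65.2 CPM in m6A-Tracer cells, and 65.2 and 62.6 CPM in untreated cells. DamV133A cells were the highest, but no comparison passed the threshold, and the adjusted p was 0.0749 for DamV133A over untreated cells and 0.0559 for DamV133A-LMNB1 over DamV133A cells (edgeR). NEFH, the heavy chain, had 9 to 30 counts per library. It had 0.518 and 0.686 CPM in DamV133A-LMNB1 cells, 0.435 and 0.526 CPM in DamV133A cells, 0.744 and 0.635 CPM in m6A-Tracer cells, and 0.435 and 0.221 CPM in untreated cells. The untreated group had the lowest mean, and no comparison passed (adjusted p 0.131 to 0.369 over untreated cells, edgeR).

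SNAP25, a SNARE protein of the presynaptic membrane, had 1.57 and 1.58 CPM in DamV133A-LMNB1 cells, 1.74 and 1.50 CPM in DamV133A cells, 0.992 and 1.41 CPM in m6A-Tracer cells, and 0.114 and 0.196 CPM in untreated cells. These levels rest on 79 and 67, 72 and 80, 40 and 60, and 5 and 8 counts, and the transfected and untreated libraries did not overlap. SNAP25 was 10.1-fold higher in DamV133A-LMNB1 over untreated cells (log2 fold change 3.33, SE 0.34, adjusted p = 0.00127, edgeR). It was 10.3-fold higher in DamV133A cells (log2 3.37, SE 0.34, adjusted p = 0.000702) and 7.68-fold higher in m6A-Tracer cells (log2 2.94, SE 0.35, adjusted p = 0.00261) by the same test. RefSeq places the antisense gene SNAP25-AS1 over SNAP25. Its symbol is not among those of the RNA table, and the labels do not say whether counting used the strand, so reads of the 2 genes cannot be told apart.

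SYP, synaptophysin, a membrane protein of synaptic vesicles, had 49.6 and 57.8 CPM in DamV133A-LMNB1 cells, 42.7 and 40.6 CPM in DamV133A cells, 49.6 and 47.5 CPM in m6A-Tracer cells, and 45.4 and 43.8 CPM in untreated cells. The fusion group was highest on average, and it did not overlap the untreated group. DamV133A-LMNB1 over untreated cells missed the threshold (log2 fold change 0.27, SE 0.08, adjusted p = 0.0528, edgeR). The antisense gene SYP-AS1 overlaps it, with the same limit.

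SYT1, synaptotagmin 1, the calcium sensor of fast vesicle release, had 13.8 and 10.3 CPM in DamV133A-LMNB1 cells, 13.4 and 15.2 CPM in DamV133A cells, 12.8 and 12.6 CPM in m6A-Tracer cells, and 11.5 and 10.9 CPM in untreated cells. The fusion libraries spanned the untreated ones, and no comparison passed. The adjusted p was 0.606 in DamV133A-LMNB1, 0.0954 in DamV133A and 0.424 in m6A-Tracer over untreated cells (edgeR).

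TUBB3, the tubulin used as a marker of young neurons, had 27.1 and 32.0 CPM in DamV133A-LMNB1 cells, 24.9 and 25.4 CPM in DamV133A cells, 24.2 and 24.3 CPM in m6A-Tracer cells, and 21.7 and 20.6 CPM in untreated cells. All transfected libraries lay above the untreated ones. It rose by 0.48 on the log2 scale (SE 0.09, adjusted p = 0.00990, edgeR) in DamV133A-LMNB1 over untreated cells. Without untreated library 1 or 2 the adjusted p was 0.0698 or 0.0957. DamV133A and m6A-Tracer over untreated cells did not pass (adjusted p = 0.0704 and 0.187, edgeR). Nor did the fusion over DamV133A cells (log2 0.23, SE 0.09, adjusted p = 0.087) or over m6A-Tracer cells (log2 0.29, SE 0.09, adjusted p = 0.0814) by the same test. The rise is thus not shown to be particular to the fusion.

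GAP43, a growth cone protein, had 2.63 and 2.37 CPM in DamV133A-LMNB1 cells, 1.79 and 1.67 CPM in DamV133A cells, 2.33 and 2.78 CPM in m6A-Tracer cells, and 2.29 and 2.77 CPM in untreated cells. DamV133A cells were the lowest, with an adjusted p of 0.0574 over untreated cells (edgeR). STMN2, a stathmin of growing axons, had 0.139 and 0.237 CPM in DamV133A-LMNB1 cells, 0.218 and 0.357 CPM in DamV133A cells, 0.223 and 0.141 CPM in m6A-Tracer cells, and 0.435 and 0.613 CPM in untreated cells. It had 6 to 25 counts per library, and although both untreated libraries were the highest, no comparison passed (adjusted p 0.0757 to 0.227 over untreated cells, edgeR).

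**Figure D2:**
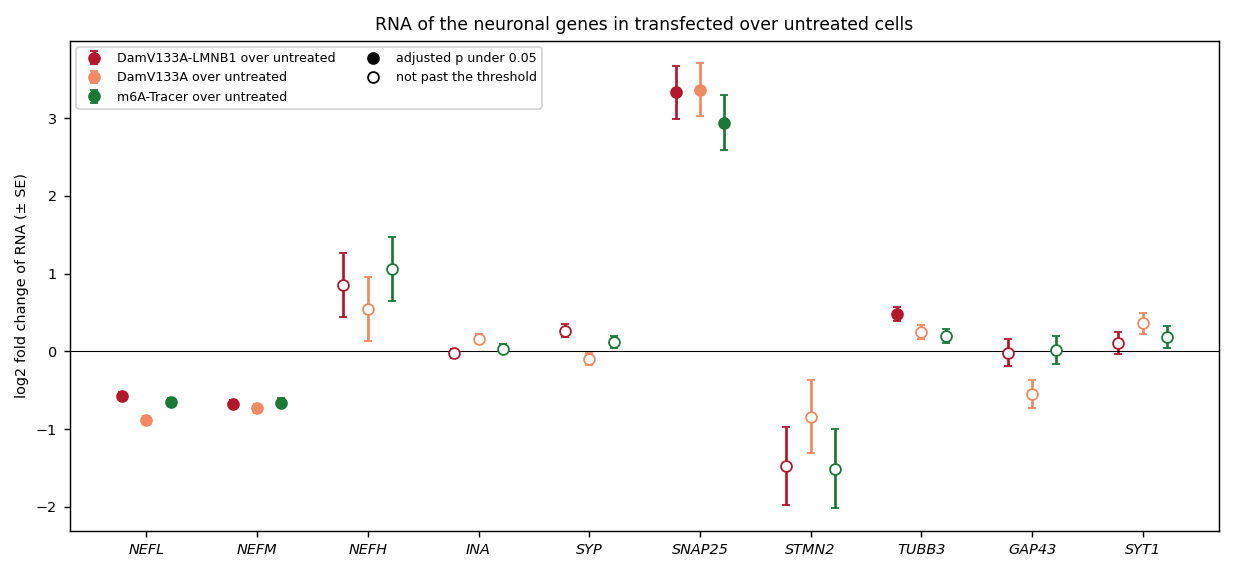
Log2 fold change of RNA over untreated cells (vertical axis, bars show SE) for the 10 genes in cells with DamV133A-LMNB1, DamV133A or m6A-Tracer; filled points passed an adjusted p of 0.05. NEFL and NEFM lie below 0 and SNAP25 near 3 in all 3 comparisons, and TUBB3 is filled for the fusion alone.

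Among the transfected groups, NEFL and SYP differed between the fusion and DamV133A alone. In DamV133A-LMNB1 over DamV133A cells 2 of the 10 genes were higher, against 12.7% of all genes, and none was lower, against 7.55%. With any 1 of the 6 libraries of DamV133A, m6A-Tracer or untreated cells left out, 1 gene of all those tested was called there in place of 3598. NEFL was higher by 0.31 on the log2 scale (SE 0.05, adjusted p = 0.0189) and SYP by 0.37 (SE 0.08, adjusted p = 0.0247) by edgeR. Both calls were lost when any of the 6 libraries of DamV133A, m6A-Tracer or untreated cells was left out (adjusted p 0.0545 to 0.163 for NEFL and 0.0591 to 0.172 for SYP). In DamV133A-LMNB1 over m6A-Tracer cells edgeR called none of the 10, against 0.231% of all genes in either direction; 1 had an unadjusted p under 0.05, and DESeq2 called none. In DamV133A over m6A-Tracer cells edgeR called none, against 0.124% of all genes; 3 had an unadjusted p under 0.05, and DESeq2 called none.

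The order of the 4 groups therefore had few steps beyond the spread. For NEFL and NEFM the untreated group stood above the next group down, and for SNAP25 below the next group up, and these were the only neighbouring groups, among the 10 genes, that differed at an adjusted p under 0.05 by edgeR. The DamV133A-LMNB1 libraries were the least alike of the RNA pairs in several of the 10 genes (SYP, TUBB3 and SYT1), and they weigh on the shared spread. Without DamV133A-LMNB1 library 1 or 2, 8720 or 8722 of all genes were called in DamV133A over untreated cells in place of 4730, and 7 of the 10 genes in place of 3.

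REST, the repressor of neuronal genes, had 31.0 and 25.9 CPM in DamV133A-LMNB1 cells, 31.3 and 36.6 CPM in DamV133A cells, 33.0 and 31.4 CPM in m6A-Tracer cells, and 29.1 and 29.8 CPM in untreated cells. No comparison passed the threshold for it (adjusted p 0.105 to 0.869, edgeR).

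For the 3 members with the highest mean CPM, picked without a correction for length, other genes averaging 1 CPM or more were ranked. The 2 with the highest Pearson r of log2 CPM over the 8 libraries were taken. This r follows the pattern over libraries and not the level or the size of a change. For NEFM they were SLC2A3, a glucose transporter (Pearson r 0.993), and HOXA13, a homeobox factor (0.993). SLC2A3 had 13.0 and 11.6 CPM in DamV133A-LMNB1 cells, 11.0 and 9.86 CPM in DamV133A cells, 13.2 and 12.2 CPM in m6A-Tracer cells, and 32.4 and 33.5 CPM in untreated cells. For NEFL they were the RNA-binding protein gene KHDRBS1 (0.996) and SLC2A1, another glucose transporter (0.996). KHDRBS1 had 514.5 and 524.9 CPM in DamV133A-LMNB1 cells against 556 and 554 CPM in untreated cells, a smaller step than that of NEFL. For INA they were MCM9, of the minichromosome maintenance family (0.979), and ZNF280C, a zinc finger gene (0.970). These values describe 8 libraries in 4 groups of 2, and the median r over all genes was 0.06, 0.04 and 0.01 for NEFM, NEFL and INA.

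The counts for the other genes of the same pathways stand beside 11.4% of all genes tested called higher and 7.56% called lower in DamV133A-LMNB1 over untreated cells. Among 41 tested synaptic vesicle and SNARE genes, 8 were higher and 2 lower in DamV133A-LMNB1 over untreated cells, with a median log2 fold change of -0.01, against 11.4% and 7.56% of all genes and a median of -0.00. STX1A, the plasma membrane SNARE that pairs with SNAP25, had 15.5 and 17.8 CPM in the fusion cells against 8.63 and 6.77 CPM in untreated cells (log2 1.11, SE 0.13, adjusted p = 0.00199, edgeR). SYN1, a synapsin that tethers vesicles, rose by 0.94 (SE 0.14, adjusted p = 0.00453), and RIMS2, an active zone scaffold, by 0.95 (SE 0.21, adjusted p = 0.0193). STX1A, SYN1 and RIMS2 also passed upward in DamV133A over untreated cells (log2 0.96, 0.95 and 1.47; adjusted p = 0.00208, 0.00267 and 0.00242, edgeR) and in m6A-Tracer over untreated cells (log2 0.90, 1.17 and 1.00; adjusted p = 0.00545, 0.00241 and 0.0217). Among 13 tested synaptotagmins other than SYT1, edgeR called none in DamV133A-LMNB1 over untreated cells; 1 had an unadjusted p under 0.05, and DESeq2 called none.

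Among 8 tested partners and other intermediate filaments, none was higher and 2 were lower in DamV133A-LMNB1 over untreated cells. VIM, vimentin, had 632 and 697 CPM in the fusion cells against 815 and 789 CPM in untreated cells (log2 -0.27, SE 0.06, adjusted p = 0.0148, edgeR), and NES, nestin, fell by 0.48 (SE 0.13, adjusted p = 0.0403). Among 16 other stathmins and tubulins 1 was higher and 1 lower. TUBB2A rose by 0.23 (SE 0.06, adjusted p = 0.0391, edgeR), and TUBB fell by 0.16 (SE 0.04, adjusted p = 0.0400), although TUBB stands in 8 rows of the table and the row with most counts was used. VIM and TUBB also passed downward in DamV133A over untreated cells (log2 -0.49 and -0.32, adjusted p = 0.00106 and 0.00236, edgeR). The same held in m6A-Tracer over untreated cells (log2 -0.42 and -0.22, adjusted p = 0.00381 and 0.0196). NES passed downward in DamV133A cells (log2 -0.445, adjusted p = 0.0394) and not in m6A-Tracer cells (adjusted p = 0.370). TUBB2A passed in neither.

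Among 26 axon growth and neuronal cytoskeleton genes, none was higher and 7 were lower in DamV133A-LMNB1 over untreated cells, with a median of -0.16, against the same 11.4% and 7.56% of all genes. L1CAM, an axonal adhesion molecule, fell by 0.92 (SE 0.20, adjusted p = 0.0174), the kinase gene DCLK1 by 0.61 (SE 0.17, adjusted p = 0.0419) and KIF5A, a kinesin of axons, by 0.51 (SE 0.11, adjusted p = 0.0183) by edgeR. KIF5A did not pass in DamV133A over untreated cells (log2 0.015, adjusted p = 0.934) or in m6A-Tracer over untreated cells (log2 -0.18, adjusted p = 0.314). L1CAM and DCLK1 also passed downward in DamV133A over untreated cells (log2 -0.71 and -0.55, adjusted p = 0.0306 and 0.0475, edgeR). They did not pass in m6A-Tracer over untreated cells (adjusted p = 0.0917 and 0.0850). Of the 26 genes, 1 was higher and 10 lower in DamV133A over untreated cells, against 13.6% and 13.1% of all genes. In m6A-Tracer over untreated cells none was higher and 3 were lower, against 7.62% and 4.67%. Among 24 neuronal regulators 3 were higher and 5 lower in DamV133A-LMNB1 over untreated cells, against 11.4% and 7.56% of all genes. CELF3, an RNA-binding protein of the nervous system, had 5.50 and 5.63 CPM in the fusion cells, 7.42 and 6.74 CPM in DamV133A cells, 7.78 and 6.19 CPM in m6A-Tracer cells, and 0.916 and 1.28 CPM in untreated cells. It rose by 2.35 (SE 0.19, adjusted p = 0.000457, edgeR) in the fusion over untreated cells, and SCRT1, a neural zinc finger repressor, by 2.04 (SE 0.35, adjusted p = 0.00829). INSM1, a neuroendocrine zinc finger factor, fell by 0.53 (SE 0.13, adjusted p = 0.0272). CELF3, SCRT1 and INSM1 passed in the same directions in DamV133A over untreated cells (log2 2.69, 1.85 and -0.61, adjusted p = 0.0001455, 0.00795 and 0.01125, edgeR). They did so in m6A-Tracer over untreated cells too (log2 2.67, 2.02 and -0.52, adjusted p = 0.000331, 0.0112 and 0.0361).

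None of the marker genes of other tissues was at 0 in all 8 libraries. At 1 CPM or more in both untreated libraries were 7 of 17 kidney epithelium, 3 of 15 adrenal, 7 of 14 glial, 3 of 10 fibroblast and 3 of 11 immune markers. Of the 17 kidney epithelium markers 9 stayed under 1 CPM in every library, and the summed level was 83.3 to 84.3 CPM in DamV133A-LMNB1 cells, 83.5 to 85.7 CPM in DamV133A cells, 85.2 to 87.1 CPM in m6A-Tracer cells, and 107 to 111 CPM in untreated cells. LRP2 and CDH1 fell by 0.91 and 0.59 on the log2 scale in the fusion over untreated cells (SE 0.11 and 0.15, adjusted p = 0.00212 and 0.0335, edgeR). They were the only 2 called there of 8 tested kidney markers, whose median log2 fold change was -0.09. LRP2 had 26.7 and 21.05 CPM in the fusion cells against 45.5 and 44.4 CPM in untreated cells, a large part of the change in the sum. LRP2 also passed downward in DamV133A and m6A-Tracer over untreated cells (log2 -0.59 and -0.64, adjusted p = 0.0065 and 0.0094, edgeR). CDH1 passed downward in DamV133A cells (log2 -0.60, adjusted p = 0.0243) and not in m6A-Tracer cells (adjusted p = 0.1005). Of the 15 adrenal markers 12 stayed under 1 CPM, and the sums were 6.81 to 6.91, 7.42 to 8.20, 6.97 to 7.51 and 5.44 to 5.91 CPM in the same order of groups, with CHGA, a granule protein, higher by 0.88 (SE 0.17, adjusted p = 0.0124). Of the 14 glial markers 6 stayed under 1 CPM in every library, and they summed to 189.8 to 192 CPM in the fusion cells and 178 CPM in untreated cells, fibroblast markers to 31.0 to 33.2 against 36.4 to 37.2 CPM, and immune markers to 8.96 to 9.86 against 8.14 to 8.47 CPM. In the fusion over untreated cells PDGFRB was higher by 1.48 (SE 0.34, adjusted p = 0.0229) and PDGFRA lower, at -1.16 (SE 0.25, adjusted p = 0.0193), by edgeR. ITGAM passed upward (adjusted p = 0.0188, edgeR), with 0.378 and 0.237 CPM in the fusion cells against 0.0229 and 0.0245 CPM, 1 count each, in untreated cells. With so few counts there, ITGAM had to be higher elsewhere to pass the filter on low counts. Nothing is read from its calls over untreated cells, and it is the immune marker counted as higher below. PDGFRB and ITGAM were also higher in DamV133A over untreated cells (log2 2.64 and 5.34, adjusted p = 0.00151 and 0.00169, edgeR). The same held in m6A-Tracer over untreated cells (log2 2.58 and 4.90, adjusted p = 0.00342 and 0.00528). Both were lower in the fusion over DamV133A cells (log2 -1.16 and -1.78, adjusted p = 0.0305 and 0.0325), where calls hung on single libraries as given above. PDGFRA did not pass in DamV133A or m6A-Tracer over untreated cells. CHGA was higher in both (log2 0.78 and 0.84, adjusted p = 0.0128 and 0.0191, edgeR). In the fusion over untreated cells 11.4% of all genes tested were higher and 7.56% lower. Of the tested markers, none of 8 kidney, 1 of 7 adrenal, none of 11 glial, 1 of 8 fibroblast and 1 of 9 immune were higher. Of the same lists, 2 kidney markers and 1 fibroblast marker were lower by edgeR. Of the glial markers 2 had an unadjusted p under 0.05, and DESeq2 called none. The part of these marker shifts in the neuronal genes' values was not tested.

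In the bulk map of the nuclear lamina, the 9 genes on chromosomes 1 to 22 were found in LAD, inter-LAD and uncalled bins. SYP, on chromosome X, has no bin in that map. Each gene was placed by the bin that holds the midpoint of its span (RefSeq, GRCh38.p14), and a bin is a LAD bin if bulk DamID called it higher with the fusion than with DamV133A, and an inter-LAD bin if lower. Of the 9 genes on chromosomes 1 to 22, SYT1 and GAP43 were in LAD bins, against 35.2% of 27944 bins tested. NEFH, INA and TUBB3 were in inter-LAD bins, against 36.2% of bins. NEFL and NEFM, which share a bin, SNAP25 and STMN2 were in neither. Of 19077 protein-coding genes placed in the same way, 11.3% were in LAD bins and 66.7% in inter-LAD bins.

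SYT1 (chromosome 12, positions 78863982 to 79452008, 588027 bp) covered 7 bins, and all 7 were LAD bins, with log2 fold changes of 0.86 to 1.58. Its middle bin (79100001 to 79200000) had 113 and 112 CPM in the bulk DamV133A-LMNB1 libraries against 42.2 and 37.5 CPM in the DamV133A libraries. The groups stood well apart, 2.83-fold (log2 1.50, SE 0.15, adjusted p = 4.94e-08, edgeR), and the authors' deposited table gives 1.54 for that bin. The bin with its start site (78800001 to 78900000) had 81.8 and 82.9 CPM against 28.6 and 29.4 CPM (log2 1.51, SE 0.17, adjusted p = 1.86e-07). SYT1 lay in a run of 24 LAD bins (2.4 Mb, 77100001 to 79500000) that ended with the gene's last bin and whose other protein-coding gene was NAV3, a neuron navigator.

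GAP43 (chromosome 3, 115623510 to 115721483) lay among LAD bins, and its own bins had the lowest bulk values there. No test compared them with the bins around them, and the bin 400 kb after its middle bin had a log2 fold change of 0.54. Of the 21 bins within 1000 kb on either side, 20 were LAD bins, the remaining bin was the second bin of GAP43 itself, and the median over the 21 was 1.01 on the log2 scale. The gene's middle bin (115600001 to 115700000) had 41.6 and 50.4 CPM in the DamV133A-LMNB1 libraries against 34.9 and 29.4 CPM in the DamV133A libraries (log2 0.52, SE 0.20, adjusted p = 0.0276, edgeR). That call was lost with library totals in place of TMM (0.26, adjusted p = 0.260), without DamV133A library 2 (adjusted p = 0.180) and without DamV133A-LMNB1 library 2 (adjusted p = 0.166). The next bin had 39.7 and 36.6 CPM against 39.2 and 28.4 CPM and did not pass (adjusted p = 0.475).

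**Figure D3:**
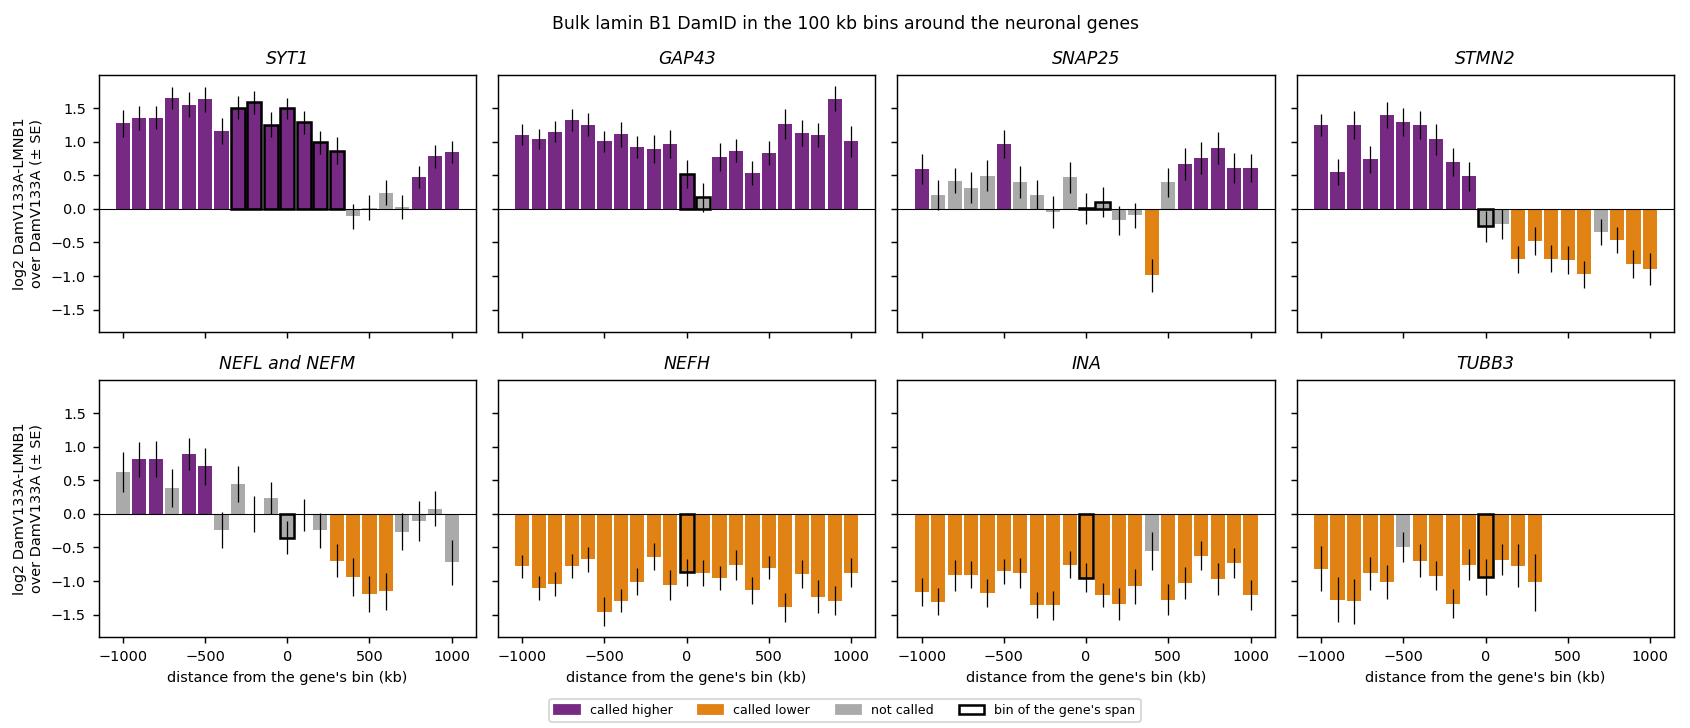
Bulk DamID log2 ratio of DamV133A-LMNB1 over DamV133A (vertical axis, bars with SE) in 100 kb bins up to 1000 kb from each gene's bin (horizontal axis), coloured by call, with the gene's own bins outlined. SYT1 ends a stretch of high bins, and the bins of GAP43 are the lowest of its panel. STMN2 sits at a border, and NEFH, INA and TUBB3 among low bins.

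NEFH, INA and TUBB3 lay deep in inter-LAD chromatin. The bin of NEFH (chromosome 22, 29400001 to 29500000) had 31.2 and 29.4 CPM in the DamV133A-LMNB1 libraries against 48.2 and 62.6 CPM in the DamV133A libraries (log2 -0.87, SE 0.20, adjusted p = 0.000574, edgeR), inside a run of 156 inter-LAD bins, with the nearest LAD bin 12600 kb away. The bin of INA (chromosome 10, 103200001 to 103300000) had 23.6 and 20.8 CPM against 39.0 and 46.7 CPM (log2 -0.95, SE 0.22, adjusted p = 0.000576), 1600 kb from the nearest LAD bin. The bin of TUBB3 (chromosome 16, 89900001 to 90000000) had 11.6 and 18.0 CPM against 26.9 and 29.6 CPM (log2 -0.94, SE 0.27, adjusted p = 0.00376), 12800 kb from the nearest LAD bin; without DamV133A library 2 its adjusted p was 0.0773. All 21 bins around NEFH, 20 of 21 around INA and 13 of 14 around TUBB3 were inter-LAD.

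The remaining genes lay between the classes. The bin shared by NEFL and NEFM (chromosome 8, 24900001 to 25000000) had 18.4 and 20.4 CPM in the DamV133A-LMNB1 libraries against 26.5 and 23.1 CPM in the DamV133A libraries, without overlap but short of the threshold (log2 -0.36, SE 0.25, adjusted p = 0.200, edgeR). It stood within 7 uncalled bins whose protein-coding genes were these 2, with LAD bins on one side and inter-LAD bins on the other. The bin of STMN2 (chromosome 8, 79600001 to 79700000) had 29.1 and 25.2 CPM against 36.4 and 28.7 CPM (log2 -0.26, SE 0.22, adjusted p = 0.295) and touched a LAD bin, with 10 LAD and 8 inter-LAD bins among the 21 around it. The bin of SNAP25 (chromosome 20, 10200001 to 10300000) had 29.1 and 26.4 CPM against 24.6 and 30.6 CPM, overlapping (adjusted p = 0.974), in a run of 8 uncalled bins. With library totals, which moved the median of all bins to -0.32 from -0.06, the bins of NEFL with NEFM and of STMN2 were called lower (log2 -0.62 and -0.52, adjusted p = 0.0299 and 0.0410). None of these members' bins carries the authors' marks for control LADs (1185 bins) or control inter-LADs (1200 bins) in the authors' deposited table.

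The Dam variant libraries, at 3162041 to 10666805 counts, covered chromosome X and with it SYP. In the V133A fusion over V133A, 1 of the 10 genes was higher, against 27.0% of 28733 bins, and 3 were lower, against 23.7%. SYT1's middle bin had 119.5 and 161 CPM in the V133A fusion libraries against 40.8 and 33.9 CPM in the V133A libraries (log2 1.91, SE 0.29, adjusted p = 0.000246, edgeR), and all 7 of its bins passed. NEFH had 11.7 and 10.6 CPM against 46.5 and 46.8 CPM (log2 -2.06, SE 0.41, adjusted p = 0.00126). SYP (chromosome X, 49100001 to 49200000) had 4.66 and 5.78 CPM against 20.9 and 13.6 CPM (log2 -1.72, SE 0.63, adjusted p = 0.0344), on 37 and 43 against 182 and 78 counts. TUBB3 had 5.92 and 4.43 CPM against 15.7 and 19.6 CPM (log2 -1.76, SE 0.66, adjusted p = 0.0380). With library totals, which put the median of all bins at -0.50 in place of -0.10, the 4 genes were called in the same directions.

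The calls of SYP and TUBB3 rested on few counts and on single libraries. SYP was lost when any of 5 libraries was left out, both V133A, both wild-type Dam and V133A fusion library 1 (adjusted p 0.0538 to 0.200), and in the bin of its start site (log2 -1.38, adjusted p = 0.0744). TUBB3 was lost without either V133A library, either wild-type Dam library or V133A fusion library 2 (adjusted p 0.0669 to 0.164). NEFL and NEFM's bin had 5.29 and 24.6 CPM in the V133A fusion libraries, which lay on either side of the 19.7 and 19.8 CPM in the V133A libraries. In the wild-type fusion over wild-type Dam, edgeR called none of the 9 bins that hold the midpoints of the 10 genes, against 2.63% of bins in either direction. None had an unadjusted p under 0.05, and DESeq2 called none. SYT1's middle bin there had 54.2 and 76.3 CPM in the wild-type fusion libraries against 38.6 and 51.0 CPM in the wild-type Dam libraries (log2 0.54, SE 0.28, adjusted p = 0.295). The test of the difference between the 2 fusion effects called none of the 10 genes by edgeR, against 0.494% of bins; 2 had an unadjusted p under 0.05, and DESeq2 called 2. These were SYT1 (difference in log2 fold change 1.37, SE 0.40) and NEFH (-1.91, SE 0.56), with edgeR adjusted p of 0.0925 and 0.0934.

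At the level of single DpnI fragments the start sites held few or no counts. The variant libraries held 3162041 to 10666805 counts (median 6566012) over 7180359 DpnI fragments, so counts per fragment were low in general. Whether these start sites differ from other fragments was not tested, and nothing is read from their low counts. The 619 bp fragment that begins at the GATC of the SYT1 window shown above (78864612 to 78865230) and holds the start had 0 counts in all 8 variant libraries. The matching 243 bp fragment of TUBB3 (89923167 to 89923409) had 2 counts in V133A library 2 and 0 in the other 7. The fragments that hold the starts of INA, SYP, GAP43 and the other TUBB3 start had 0 counts throughout. A count of 0 allows up to 3 counts per library, and this covers counting error only.

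In single cells, a bin was counted as in contact when it held at least the fragments expected from the cell's total and the summed bulk DamV133A libraries. Dam-only cells carry no lamin B1 fusion. In them the same count is given for comparison under the same word, and it is not a measure of contact with the lamina. Cells had 9526 to 348793 fragments, so each bin held few, and each group of cells counts as 1 sample without a test. Exact Clopper-Pearson intervals cover counting over cells only. Over the 8 autosomal bins of these genes, contact was counted in 34 of 120 pairs of cell and bin (28.3%) in batch 1 fusion cells, 84 of 288 (29.2%) in batch 2 fusion cells and 11 of 24 (45.8%) in Dam-only cells. Means over all bins tested were 34.9%, 39.6% and 37.3% in the same groups.

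GAP43 was in contact in 9 of 15 batch 1 fusion cells (60.0%, 95% interval 32.3 to 83.7%), 24 of 36 batch 2 fusion cells (66.7%, 49.0 to 81.4%) and 1 of 3 Dam-only cells. SYT1's middle bin was in contact in 7 of 15 (46.7%, 21.3 to 73.4%), 14 of 36 (38.9%, 23.1 to 56.5%) and 1 of 3 cells. These shares stood beside means over LAD bins of 59.8%, 62.3% and 28.1% in the same groups. With a threshold of 2 times the expected number, GAP43 was in contact in 13.3% and SYT1's middle bin in 0% of batch 1 fusion cells, against a LAD mean of 37.0%. In batch 2 fusion cells these shares were 30.6% and 13.9%, against a LAD mean of 33.6%. Along SYT1's 7 bins the share ran from 20.0 to 66.7% in batch 1 and from 38.9 to 69.4% in batch 2. A batch 1 fusion cell had a median of 4 of the 7 bins in contact (range 0 to 6) and a batch 2 fusion cell 3.5 (0 to 7), with all 7 in contact in 2 batch 2 cells.

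NEFH was in contact in 1 of 15 batch 1 fusion cells (6.67%, 0.169 to 31.9%), 1 of 36 batch 2 fusion cells (2.78%, 0.0703 to 14.5%) and 2 of 3 Dam-only cells. TUBB3 was in contact in 1 of 15, 6 of 36 and 1 of 3 cells, and INA in 3 of 15, 6 of 36 and 2 of 3 cells. Inter-LAD bins averaged 14.3%, 17.2% and 48.5% in the same groups. The bin of NEFL and NEFM was in contact in 2 of 15, 9 of 36 and 2 of 3 cells, SNAP25 in 4 of 15, 17 of 36 and 0 of 3 cells, and STMN2 in 7 of 15, 7 of 36 and 2 of 3 cells. The batches differed in construct and library kit, which cannot be told apart. When cells were thinned to 10000 fragments each, the shares for GAP43 were 42.9% in batch 1 and 33.3% in batch 2 and those for SYT1's middle bin 21.4% and 22.2%. The thinned batch 1 shares cover 14 cells, since a cell with 9526 fragments was too small to thin. LAD bins then averaged 38.2% in batch 1 and 36.9% in batch 2.

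**Figure D4:**
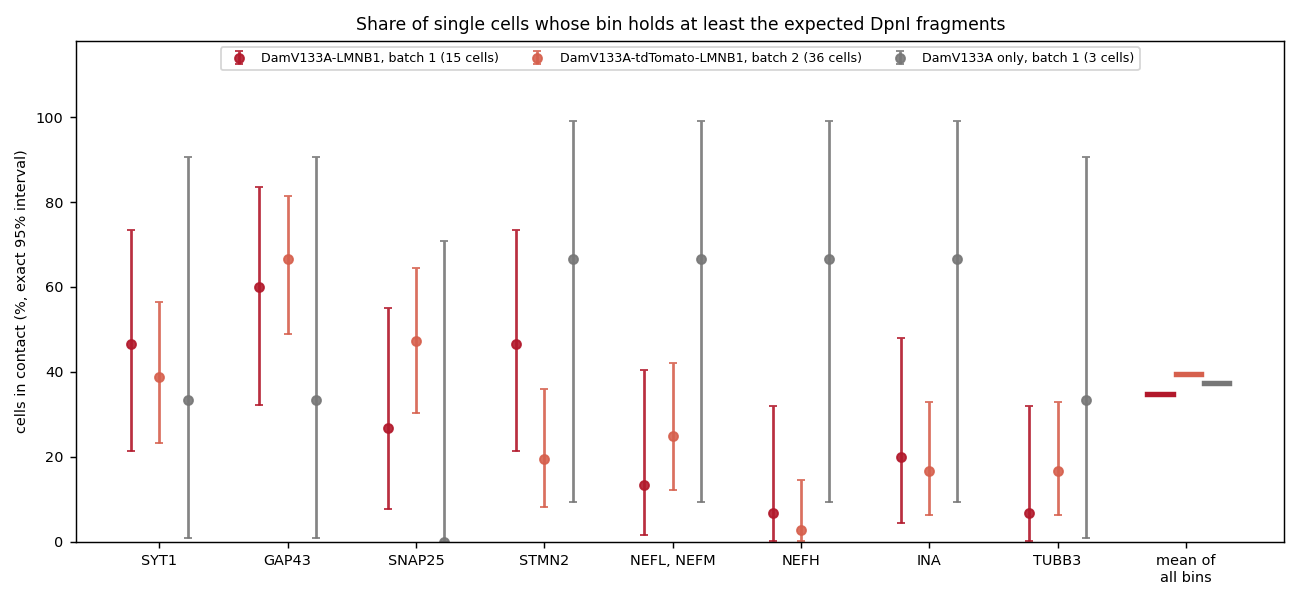
Share of cells in contact (vertical axis, %, with exact 95% intervals) for the bin of each gene in batch 1 fusion cells, batch 2 fusion cells and Dam-only cells; short lines at the right give the mean over all bins tested. GAP43 is highest in both batches of fusion cells, NEFH and TUBB3 are lowest in batch 1 at 6.67%, and the intervals of the 3 Dam-only cells are the widest. Dam-only cells carry no lamin B1 fusion, so their share does not measure contact with the lamina.

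Genes at 1 CPM or more in every RNA library were found in each class of bin: SYT1 and GAP43 in LAD bins, NEFL and NEFM in an uncalled bin, and INA and TUBB3 in inter-LAD bins. RNA at such a level in a LAD bin was not particular to these genes. Of 2009 genes in LAD bins with RNA values, 477 (23.7%) were at or above the 11.2 CPM that SYT1 averaged in untreated cells. That count makes no correction for transcript length. Of the other lists, read against the 11.3% of all placed protein-coding genes in LAD bins, 4 of 42 placed synaptic vesicle genes were in LAD bins, among them PCLO, a presynaptic scaffold (bulk log2 1.38, SE 0.17, adjusted p = 4.61e-07; 24.4 and 28.2 CPM of RNA in untreated cells). Of 15 other synaptotagmins 4 were in LAD bins, SYT4, SYT9, SYT10 and SYT14. Of 27 axon growth genes 4 were, among them the adhesion gene CNTN1 (log2 1.33, SE 0.20, adjusted p = 8.04e-06; 25.2 and 22.3 CPM), and of 17 other stathmins and tubulins and 9 other intermediate filament genes none was. Of 30 neuronal regulators 5 were in LAD bins, and of 10 fibroblast markers 5. These bin calls are edgeR's for the bulk libraries, and PCLO and CNTN1 were named after their values were seen.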

How the data were processed

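RNA, bulk DamID, Dam variant DamID and single-cell DamID from 74 samples were used. The RNA values are estimated counts that the authors deposited per gene; they were rounded here. For bulk DamID, the authors deposited whole-number coverage counts per 100 kb bin; the labels do not say whether 1 unit is a read or a fragment. For single cells they deposited counts of unique fragments per bin, and for Dam variants counts per DpnI fragment, summed here to 100 kb bins. The same table holds the authors' deposited log2 fold change per bin and their 0 or 1 marks of control bins. Build hg38 and the tools Salmon, limma, DESeq2, bedtools 2.28, SAMtools 1.9, BWA 0.7.15-r1140 and Trimmomatic 0.39 are listed in the submitters' processing notes, with no link from tool to file.

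Tests used edgeR 4.0.16 in R 4.3.3 on counts (filterByExpr, TMM, quasi-likelihood F test, Benjamini-Hochberg over all features, threshold 0.05), with 1 fit per table over all its libraries; SEs are the log2 fold change over the root of F. The tests were tried on simulated data. DESeq2 1.42.0, other scalings, no filter, a replicate block, libraries left out and start-site bins were alternatives. Where a symbol had several rows, that with most counts was used. Named genes were the 10 members, LMNB1, REST, and up to 3 called genes per list with the largest change in DamV133A-LMNB1 over untreated cells. The 2 genes with the highest Pearson r to each of the 3 highest members were also named. Members and lists were chosen with earlier results of these data known. Python 3.11.15 served for the rest. Proteins, transcript lengths, and promoters of NEFL, NEFM, NEFH, SNAP25 and STMN2 were not used here.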

Additional observations from a re-analysis of the deposited data

How the results depend on the processing

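Of the calls made over untreated cells, those of NEFL, NEFM and SNAP25 passed in the same direction under every alternative run, and no called change reversed. With library totals in place of TMM, 5 of the 10 genes were called in DamV133A over untreated cells (INA and TUBB3 added). Over all 17740 genes tested, 4889 were called there in place of 4730. Without the low-count filter 1 of the 10 was called in DamV133A-LMNB1 over m6A-Tracer cells. Leaving out 1 library at a time gave 3 to 7 calls in DamV133A over untreated cells, 0 to 5 in DamV133A-LMNB1 over DamV133A cells, 0 to 3 in each comparison over m6A-Tracer cells, 3 to 5 in bulk DamID, 2 to 6 in the V133A fusion over V133A and 0 to 2 in the test of the difference between fusion effects, for which DESeq2 gave 2. SYP in DamV133A-LMNB1 over untreated cells passed with DESeq2 (adjusted p = 0.0447), library totals (0.0366) and no filter (0.0123). Values short of the threshold changed sign. With library totals, NEFM was at -0.024 in DamV133A-LMNB1 over DamV133A cells and the bulk bin of SNAP25 at -0.25, both on the log2 scale. With libraries left out, the log2 fold change ranged from -0.057 to 0.019 for INA, -0.15 to 0.13 for GAP43 and -0.11 to 0.31 for SYT1 in DamV133A-LMNB1 over untreated cells. It ranged from -0.12 to 0.16 for GAP43 in m6A-Tracer over untreated cells, -0.14 to 0.075 for SNAP25 in DamV133A-LMNB1 over DamV133A cells, and -0.14 to 0.18 for the bulk bin of SNAP25. The cause was not tested. Contact in single cells fell with a threshold of 2 times the expected number to 5.83% in batch 1 fusion cells, 11.1% in batch 2 fusion cells and 4.17% in Dam-only cells, and with thinning to 10000 fragments to 18.8%, 22.2% and 8.33%. Thinning left 14 of the 15 batch 1 fusion cells. Deviations of same-numbered libraries from their group means correlated at -0.05 to 0.02 in RNA, 0.01 in bulk DamID and -0.00 to 0.03 in the variants. Such correlations over all features cannot settle whether libraries with the same replicate number shared a culture or a batch. With that number as a replicate block, TUBB3 in the V133A fusion over V133A was at -1.77 (adjusted p = 0.0509), which left 3 of the 10 genes called there. The counts of called genes in the other comparisons were the same with the block. In RNA, NEFH, STMN2 and SNAP25 rest on 9 to 30, 6 to 25 and 5 to 80 counts per library.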
